A study of Mus musculus with 9 samples.

Results

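The data describe 4 genes, Dbp, Tef, Hlf and Nfil3, of 23747 genes listed for each nucleus of the mouse heart. They were chosen by name as the clock output factors of the PAR bZIP group, with earlier results of these data known but with no measured value in the rule, and all 4 were listed in each of the 9 mice. Dbp, Tef and Hlf encode transcription factors with a basic leucine zipper and a region rich in proline and acidic residues (PAR), and they activate genes through a short DNA element called the D-box. Nfil3, also called E4BP4, has a related zipper without the PAR region, binds the same element and represses. In many tissues the clock activators BMAL1 (gene Arntl) and CLOCK drive Dbp from E-boxes, Nfil3 is repressed by REV-ERB proteins (Nr1d1, Nr1d2), and the 2 arms peak in opposite phases of the day. In the heart, these factors are part of the daily rhythm of metabolism and of ion channel genes.

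Single-nucleus RNA sequencing (sNuc-seq) counts transcripts of single nuclei by unique molecular identifiers (UMIs), here at the 3′ end. The study asked how a traditional Chinese medicine, Shexiang Baoxin Pill (SBP, MUSKARDIA in the labels), alters the cells of a heart damaged by ischemia-reperfusion (I/R). All 9 mice were C57BL/6, and they were 8 weeks old when supplied, per the methods. The 3 sham mice took vehicle by gavage for 7 days and had an operation without ligation, the 3 I/R mice took vehicle for 7 days before 30 min of ligation of the left anterior descending artery and 24 h of reperfusion, and the 3 SBP mice took the pill for 7 days before the same operation. No group received the pill without the injury. The mice lived in a 12 h light and 12 h dark cycle, and the time of day of sampling is not given in the sources used here, so hour of sampling and group cannot be told apart. Each sample was 1 mouse, and the tissue came from below the site of ligation.

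The files held 49171 nuclei, fewer than the study states, with 135423853 UMIs, between 10329520 and 18205985 UMIs per mouse and a median of 1540 to 2031 UMIs per nucleus. Of 48881 distinct barcodes, 290 (0.593%) occurred in more than 1 mouse. Nuclei fell into 18 clusters, named from marker genes as cardiomyocytes, endothelial cells, fibroblasts, myeloid cells and 4 rarer types, and each name stands for nuclei that resemble the type. The 45 clock genes and factors listed were kept out of clustering. In each of the 4 main types, every marker listed for the type was detected in every group. UMIs were summed per mouse and type and are given as CPM, UMIs divided by the sum's total and multiplied by 1e6, after scaling by TMM, the trimmed mean of M values. In such sums, fewer cells that express a gene and less RNA per cell cannot be told apart. Reads come from transcript ends, so CPM was compared between mice and types for 1 gene, not between genes.

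In the genome build GRCm38, Dbp lies on chromosome 7 from 45705088 to 45710203 (forward strand), Tef on chromosome 15 from 81802421 to 81826863 (forward), Hlf on chromosome 11 from 90336536 to 90390895 (reverse) and Nfil3 on chromosome 13 from 52967209 to 52981073 (reverse). Because 3 members share a direction below and Nfil3 has the opposite one, the RefSeq windows (GRCm38.p6) around their starts (250 bases before to 50 after) were searched on both strands for 4 elements known from clock control. These were the E-box CACGTG (in 7.15% of 32851 windows of all genes), the D-box TTATGTAA or TTACGTAA (1.06%), the core of the ROR and REV-ERB element, AGGTCA (16.3%), and the cAMP response element TGACGTCA (1.79%). Both Tef windows held an E-box, the Hlf window a cAMP response element and the Nfil3 window the ROR core on the other strand. The following 30-base stretches show these matches, with the element in capitals and read 5′ to 3′ on the strand of the gene.
Tef, first start, E-box, chr15:81802534-81802563: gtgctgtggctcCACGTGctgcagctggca
Tef, second start, E-box, chr15:81811264-81811293: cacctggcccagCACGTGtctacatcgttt
Hlf, cAMP response element, chr11:90390908-90390937: ggtgcgggcccTGACGTCActcttgtcagg
Nfil3, ROR core on the other strand (TGACCT), chr13:52981034-52981063: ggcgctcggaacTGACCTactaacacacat
The element began 127 and 138 bases before the RefSeq starts of Tef, 9 before that of Hlf and 12 before that of Nfil3. These starts are not the ends of the gene spans given above, and both Tef stretches and the Nfil3 stretch lie inside those spans. The window of Dbp held none of the 4 elements, no member's window held a D-box, and a match, like its absence in a window of 300 bases, is a description of the sequence only.

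In the injured hearts the 3 activators were lower and the repressor was higher. Dbp fell to 8.12% of its sham mean in cardiomyocytes, 9% in endothelial cells, 6.73% in fibroblasts and, among myeloid cells, 8.85%, while Tef and Hlf, where called, fell to between 22.2% (Hlf, myeloid) and 41.3% (Tef, cardiomyocytes). Nfil3 rose in fibroblasts and myeloid cells. For I/R set against sham, 3 of the 4 factors were called by limma in cardiomyocytes (0.814% of all genes tested there were called), 2 of 4 in endothelial cells (3.2%), 4 of 4 in fibroblasts (11.5%) and 4 of 4 in myeloid cells (17.7%). By direction, the share of all genes called lower was 0.163%, 1.36%, 4.55% and 7.62% in these types in the same order, and the share called higher was 0.651%, 1.84%, 6.93% and 10.1%. The 3 I/R mice did not overlap the 3 sham mice in 15 of the 16 combinations of factor and type, with Nfil3 in cardiomyocytes as the exception, whereas 16.4%, 20.8%, 27.1% and 35.6% of all genes were without overlap in cardiomyocytes, endothelial cells, fibroblasts and myeloid cells. In 6 of the 16 combinations some or all mice of the lower group lay below the filter on low counts (Nfil3 in endothelial cells, fibroblasts and myeloid cells, Dbp in endothelial and myeloid cells, Hlf in myeloid cells). Nfil3 in endothelial and myeloid cells was over it in 0 sham mice, and Dbp in myeloid cells in 0 I/R mice. These passed through the groups where they are higher, so their lack of overlap is not separate from the filter. Of the 10 combinations over the filter in all sham and I/R mice, 8 were called. An exact permutation test on CPM gave p = 0.1 where groups did not overlap, the smallest that 3 mice against 3 allow.

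**Figure D1:**
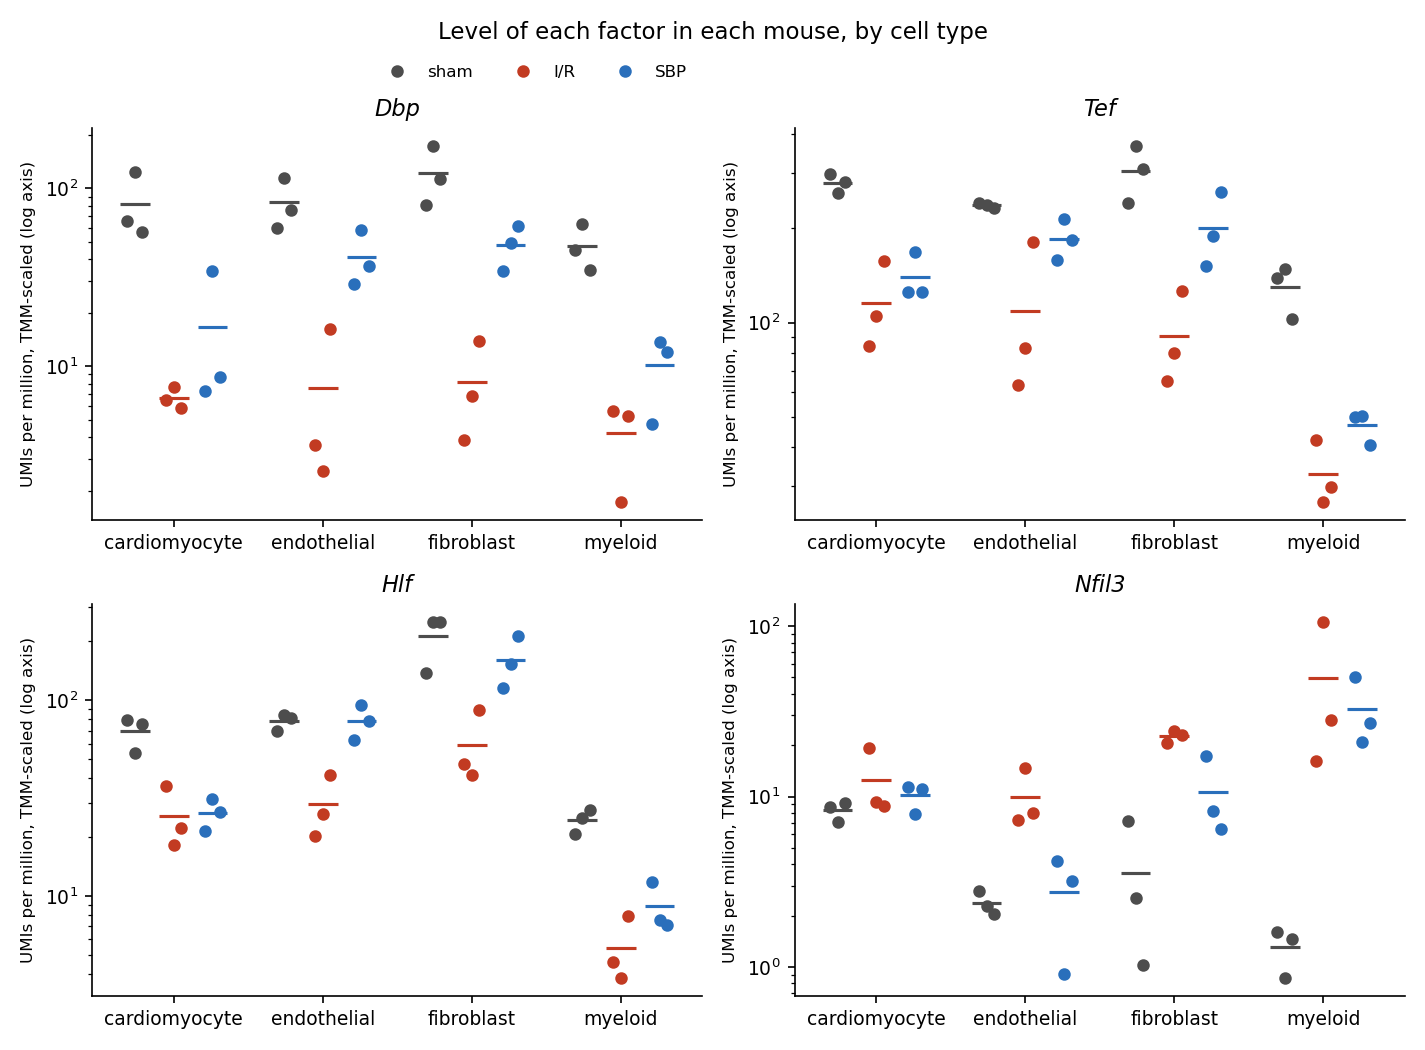
Level in CPM of each mouse (points, log axis) and the mean of 3 mice (bars) for the 4 factors in 4 cell types, with sham in grey, I/R in red and SBP in blue. The means of Dbp, Tef and Hlf are highest in sham in every type except for Hlf in endothelial cells, where SBP and sham overlap, and the mean of Nfil3 is lowest in sham in every type.

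Dbp showed the largest differences of the 3 activators. In cardiomyocytes its level was 65.4, 124 and 56.7 CPM in sham replicates 1 to 3, 6.49, 7.62 and 5.84 in I/R and 7.23, 34.2 and 8.67 in SBP. In endothelial cells it was 59.9, 115 and 75.5 CPM in sham, 3.62, 2.60 and 16.3 in I/R and 29.2, 58.0 and 36.8 in SBP. In each of these types, and in the 2 that follow, all I/R mice lay below all sham mice. In fibroblasts the Dbp level was 80.3, 173 and 113 CPM in sham, 3.86, 6.82 and 14.0 in I/R and 34.5, 49.4 and 61.2 in SBP. In myeloid cells it was 44.8, 63.0 and 34.8 CPM in sham, 5.63, 1.74 and 5.26 in I/R and 4.74, 13.6 and 12.1 in SBP. Sham replicate 2 was the highest of its group in all 4 types. The log2 fold change of Dbp between I/R and sham was −3.36 in cardiomyocytes (SE 0.49, limma adjusted p 0.0155), −3.63 in endothelial cells (SE 0.52, 0.00889), −3.82 in fibroblasts (SE 0.41, 0.000371) and −3.28 in myeloid cells (SE 0.43, 0.000475). The cardiomyocyte call was lost without sham replicate 2 (adjusted p 0.0559), sham replicate 3 (0.0526) or I/R replicate 2 (0.0596), and without I/R replicate 3 the endothelial value was −4.32.

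Tef, the thyrotroph embryonic factor and the second activator, fell in 3 of the 4 types. In cardiomyocytes its level was 299, 259 and 281 CPM in sham, 83.9, 105 and 157 in I/R and 125, 169 and 125 in SBP. In endothelial cells it was 241, 237 and 232 CPM in sham, 63.3, 83.1 and 181 in I/R and 159, 214 and 184 in SBP. The third I/R mouse thus stood closer to sham than the other two. In fibroblasts the Tef level was 241, 367 and 310 CPM in sham, 65.1, 79.8 and 126 in I/R and 152, 189 and 262 in SBP. In myeloid cells it was 139, 148 and 102 CPM in sham, 42.1, 26.7 and 29.8 in I/R and 49.8, 50.3 and 40.5 in SBP. I/R and sham did not overlap in any of the 4. The log2 fold change between I/R and sham was −1.32 in cardiomyocytes (SE 0.22, limma adjusted p 0.0241), −1.78 in fibroblasts (SE 0.26, 0.0017) and −1.96 in myeloid cells (SE 0.21, 0.000143). In endothelial cells the value of −1.26 (SE 0.31) was not called (limma adjusted p 0.0577), but it was −1.69 and called without I/R replicate 3 (0.000928). The cardiomyocyte call was lost without sham replicate 1 (adjusted p 0.102), 2 (0.0676) or 3 (0.12) and without I/R replicate 2 (0.112), and also with only the 6 mice compared in the fit (0.0557).

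Hlf, the hepatic leukemia factor and the third activator, fell in all 4 types. In cardiomyocytes its level was 79.7, 53.7 and 76.0 CPM in sham, 36.6, 18.3 and 22.1 in I/R and 21.5, 31.1 and 27.0 in SBP. In endothelial cells it was 69.3, 84.0 and 80.8 CPM in sham, 20.3, 26.4 and 41.3 in I/R and 62.6, 94.0 and 78.0 in SBP. The SBP mice overlapped the I/R mice and not the sham mice in cardiomyocytes, and overlapped the sham mice and not the I/R mice in endothelial cells. In fibroblasts the Hlf level was 137, 251 and 251 CPM in sham, 47.0, 41.7 and 89.3 in I/R and 116, 153 and 213 in SBP. In myeloid cells it was 20.8, 25.0 and 27.6 CPM in sham, 4.59, 3.82 and 7.90 in I/R and 11.8, 7.58 and 7.11 in SBP. All I/R mice were below all sham mice in each type. The log2 fold change between I/R and sham was −1.45 in cardiomyocytes (SE 0.26, limma adjusted p 0.0261), −1.44 in endothelial cells (SE 0.24, 0.00938), −1.85 in fibroblasts (SE 0.34, 0.00637) and −2.03 in myeloid cells (SE 0.32, 0.00136). The cardiomyocyte call was lost without sham replicate 1 (adjusted p 0.122) or 3 (0.149) and without I/R replicate 2 (0.124) or 3 (0.056), and with only the 6 mice compared (0.0549), and the endothelial call without sham replicate 2 (0.0594).

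Nfil3, the repressor of the group, which immune cells also use to direct their differentiation, went the other way. In cardiomyocytes its level was 8.69, 7.06 and 9.16 CPM in sham, 19.3, 9.33 and 8.76 in I/R and 11.4, 7.93 and 11.1 in SBP. Here the groups overlapped, and only I/R replicate 1 stood above the rest. In endothelial cells the level was 2.77, 2.28 and 2.04 CPM in sham, 7.23, 14.7 and 7.97 in I/R and 4.17, 0.913 and 3.2 in SBP. In fibroblasts it was 7.14, 2.52 and 1.03 CPM in sham, 20.7, 24.1 and 23.1 in I/R and 17.3, 8.23 and 6.43 in SBP. In both types every I/R mouse was above every sham and SBP mouse, but in endothelial cells Nfil3 passed the filter on low counts through the I/R mice alone. In myeloid cells the level was 1.60, 0.863 and 1.45 CPM in sham, from 1, 1 and 2 UMIs, 16.1, 106 and 28.1 in I/R, from 77, 304 and 64 UMIs, and 50.5, 20.9 and 27.0 in SBP, from 64, 69 and 38 UMIs. Pooled over mice, the ratio of I/R to sham in myeloid cells was 33.7 with a counting interval (95%) of 13.1 to 124, which covers counting error only. I/R replicate 2 held 304 of the 445 I/R UMIs, and without it the ratio was 15.2 (5.82 to 56.7), whereas without I/R replicate 1 it was 53.1 (20.6 to 196).

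For Nfil3, limma gave a log2 fold change between I/R and sham of 2.61 in fibroblasts (SE 0.47, adjusted p 0.00489) and 4.04 in myeloid cells (SE 0.58, 0.00136), both called. The myeloid value rests on 4 UMIs in sham and depends on the prior count of 1 CPM. Without I/R replicate 2, the mouse with the highest myeloid level, the myeloid value was 3.28 and still called (limma adjusted p 0.000438), and with voom weights it was 4.28 and not called (0.121). The endothelial value of 1.65 (SE 0.42) missed the threshold (limma adjusted p 0.0554). It was called under 5 alternatives, among them leaving out SBP replicate 2 (0.0289), and fell below the filter on low counts under others. In cardiomyocytes the value was 0.46 (SE 0.28, limma adjusted p 0.495).

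The size of the change was then compared between cell types of the same mice. Of 72 differences tested for the 4 factors, limma called 7, of which 6 were for Nfil3 and 1 for Hlf, while over the 6 pairs of types 0.0616% to 9.92% of all genes were called in I/R against sham, 1.32% to 7.84% in SBP against sham and at most 0.00962% in SBP against I/R. The rise of Nfil3 between sham and I/R was larger in myeloid cells than in cardiomyocytes (difference of log2 fold changes −3.58, cardiomyocyte minus myeloid, SE 0.65, limma adjusted p 0.00597, 8.42% of genes called) and than in endothelial cells (−2.39, SE 0.45, 0.00806, 7.8%). It was also larger in fibroblasts than in cardiomyocytes (−2.15, SE 0.51, limma adjusted p 0.0395, 4% of genes called), a call lost without 5 of the 9 mice, and its highest adjusted p was 0.148, without I/R replicate 2. In sham, Nfil3 was over the filter on low counts in 0 mice in myeloid and endothelial cells and 1 in fibroblasts. It passed the filter in these types through the groups where it is higher, so these differences start from values near the floor. For Dbp and Tef no difference between types passed the test in any contrast. In I/R against sham the difference for Dbp was 0.27 between cardiomyocytes and endothelial cells (95% interval −0.86 to 1.39) and −0.54 between fibroblasts and myeloid cells (−1.54 to 0.47).

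**Figure D2:**
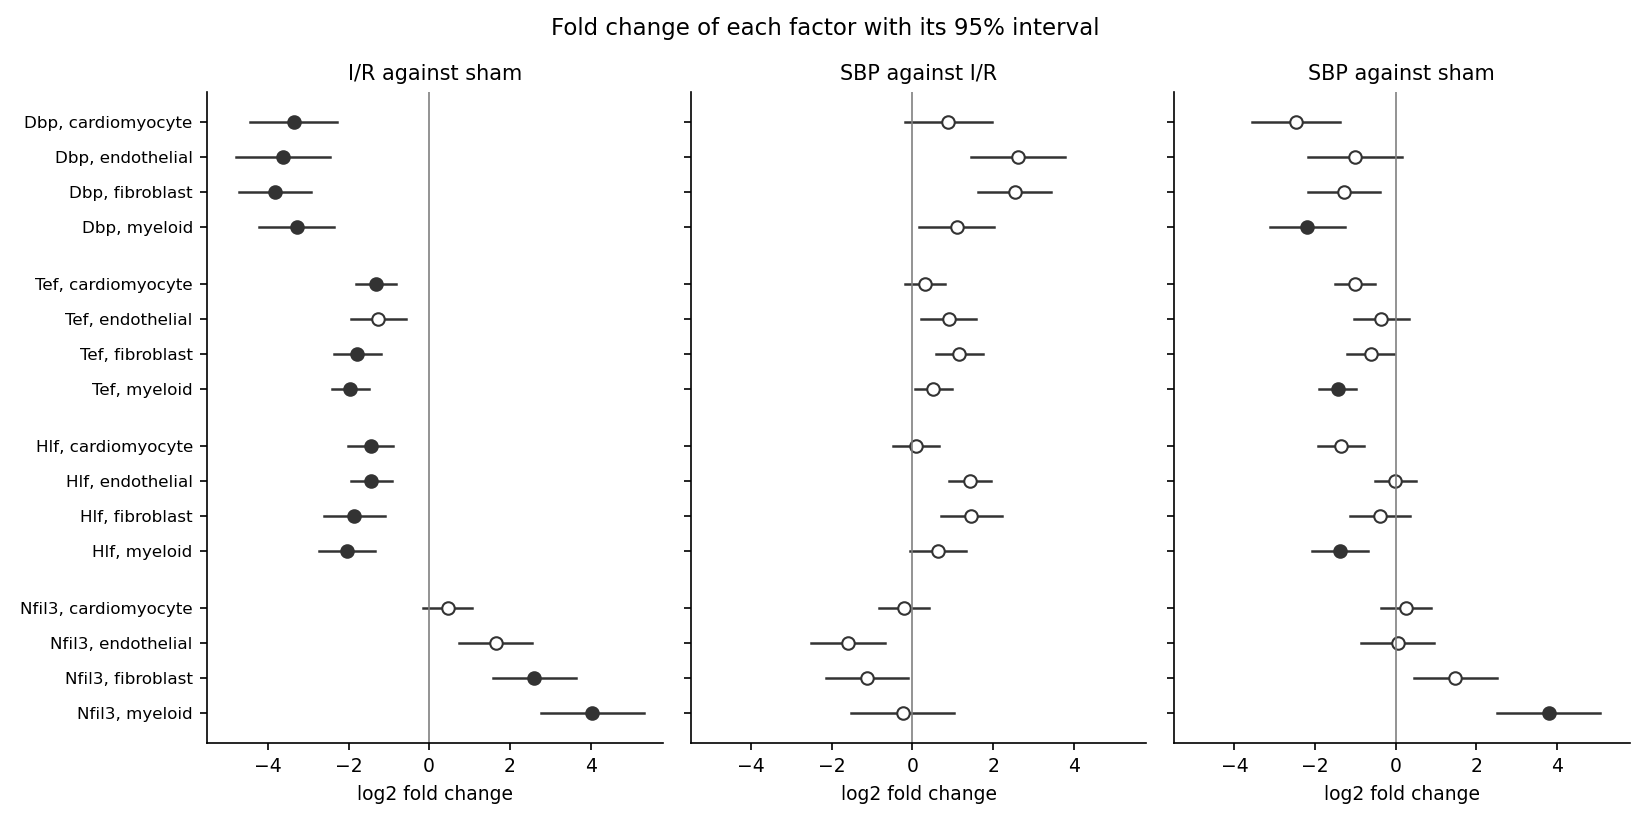
Log2 fold change (points) with its 95% interval (lines) for each factor and cell type in the 3 contrasts, filled where called by limma. The I/R against sham points of Dbp, Tef and Hlf lie between −3.82 and −1.26, those of Nfil3 between 0.46 and 4.04, and no point is filled for SBP against I/R.

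Markers of other cell types moved with these groups. In endothelial nuclei the summed CPM of 6 cardiomyocyte markers, none of them at 0, ranged from 7347 to 8916 in sham, 2827 to 5078 in I/R and 2701 to 3415 in SBP. In fibroblasts the ranges were 4369 to 5439, 1542 to 2340 and 1548 to 2215, and in myeloid cells 5700 to 7057, 1679 to 2770 and 1825 to 2387. Cardiomyocytes express the members too, so the RNA that cardiomyocytes would bring at the ratio of these markers was taken off every gene of the other types in each mouse, an alternative chosen after seeing the data. The same 13 of 16 were then called, but 3 of these are cardiomyocyte values, which this step left unchanged by design. In SBP against sham 3 were called in place of 4, Hlf in myeloid cells being lost (limma adjusted p 0.103). For Dbp the log2 fold change between I/R and sham was −3.69 in endothelial cells (limma adjusted p 0.0305), −3.87 in fibroblasts (0.000608) and −3.19 in myeloid cells (0.00108), and for Nfil3 it was 3.06 in fibroblasts (0.0156). For Nfil3 in myeloid cells it became larger, 5.27 (limma adjusted p 0.000333) in place of 4.04, and that between SBP and sham 5.03 (0.000615) in place of 3.79, both against a sham level of which 0.242 of 1.34 CPM was left.

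The 9 myeloid markers, none at 0, were higher in I/R in the other types, with summed levels in endothelial nuclei of 286 to 409 CPM in sham, 591 to 806 in I/R and 318 to 433 in SBP, and in fibroblasts of 187 to 239, 311 to 547 and 182 to 324. Taking off myeloid RNA in the same way left Nfil3 called in fibroblasts (log2 fold change 2.51, limma adjusted p 0.00625) and at 1.24 in endothelial cells (0.226). In myeloid nuclei the B cell markers summed to 620.5 to 706 CPM in sham, 48.5 to 149 in I/R and 168 to 405 in SBP. Endothelial markers there summed to 323 to 386, 186 to 220 and 181 to 334 CPM. Fibroblast markers, which did not fall, summed to 612 to 791, 674 to 981 and 771 to 842 CPM. RNA of these types was not taken off. Free RNA was measured here only through markers, and other sources were not tested.

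Within a type, the groups did not hold the same clusters. Of cardiomyocytes, 92.1% in sham but 27.0% in I/R and 16.1% in SBP were in the cluster led by Gm17428, and the rest in that led by Fstl4, Ankrd1 and Myh7. These and the next shares pool the nuclei of a group's mice. In the Gm17428 cluster, 2 I/R mice and 2 SBP mice had 20 or more nuclei. Of fibroblasts, 86.4%, 10.7% and 10.2% were in the cluster led by Kcnip1, and of myeloid cells 91.5%, 26.6% and 35.7% in that led by Lilra5 and Cd163, while 1.6%, 63.3% and 55.6% were in that led by F7 and Gpnmb. The values were therefore looked at inside clusters with 50 or more nuclei in both groups, as pooled CPM without a test. Dbp was lower in I/R than in sham in 12 of 12 clusters (ratio 0.0413 to 0.444), Tef in 12 of 12 (0.211 to 0.726) and Hlf in 12 of 12 (0 to 0.668). Nfil3 was higher in 10 of 12. The Hlf ratio of 0 is that of B cells, with 16 UMIs in sham and 0 in I/R. The 12 include the B cell and T cell clusters, and the ratio of 0.444 is that of B cells, where 1 UMI of Dbp was counted in 55 I/R nuclei. B cells are also one of the 2 exceptions for Nfil3, with 1 UMI in sham and 0 in I/R.

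Inside the cardiomyocyte cluster led by Gm17428 sham nuclei had 80.3 CPM of Dbp, I/R nuclei 6.11 and SBP nuclei 26.9, and in the cluster led by Fstl4 it was 76.8, 6.80 and 16.0. For Tef the same clusters gave 281, 89.1 and 159 CPM, and 257, 134 and 135. In the first cluster 2 of the I/R mice had 20 or more nuclei, with Tef at 85.0 and 181 CPM. The pooled I/R value lies near the first of these, so the pooled I/R values there rest mostly on 1 mouse. The order of the clusters in I/R is not fixed by these pooled values. The low Dbp of I/R was present in both clusters, at 6.03 and 8.06 CPM in those 2 mice of the first cluster and 5.91 to 8.10 in the second. Hlf was 71.8, 42.0 and 42.2 CPM in the first cluster and 44.5, 19.9 and 23.2 in the second. By mouse, Hlf in the first cluster overlapped between I/R (40.4 and 80.6 CPM) and sham (57.9 to 79.8). In the second cluster it did not (16.5 to 20.8 and 39.7 to 51.3). How far the mix of clusters bears on the cardiomyocyte Hlf value was not tested. The fibroblast cluster led by Gm6093 and Tnc had 2.70 CPM of Dbp in I/R, 46.8 of Tef and 19.8 of Hlf, against 13.1, 123 and 86.4 in the cluster led by Lvrn and 5.24 (5 UMIs), 108 and 94.4 in that led by Kcnip1. By mouse, Dbp overlapped between these clusters (0.665 to 4.97, 1.85 to 17.4, and 0 to 4.66 CPM in 2 mice), while Tef and Hlf did not overlap between the first and the others. The clusters were made from expression, and the share of all genes without overlap inside or between clusters was not computed. In the Kcnip1 cluster the 2 mice had Tef at 100 and 218 CPM. Nfil3 was at 23.9, 23.1 and 18.9 CPM in these clusters. In the myeloid cluster led by Lilra5, which most sham nuclei belonged to, Nfil3 was 1.10 CPM in sham (3 UMIs), 30.7 in I/R (77 UMIs, 3.2 to 67.2 CPM by mouse) and 11.3 in SBP (23 UMIs, 4.02 to 26.3 by mouse, overlapping I/R), and it was 52.6 and 39.1 CPM in I/R and SBP in the cluster led by F7. Nfil3 was lower in I/R than in sham in the endothelial cluster led by Reln (11.5 and 8.20 CPM, from 6 UMIs in each group).

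**Figure D3:**
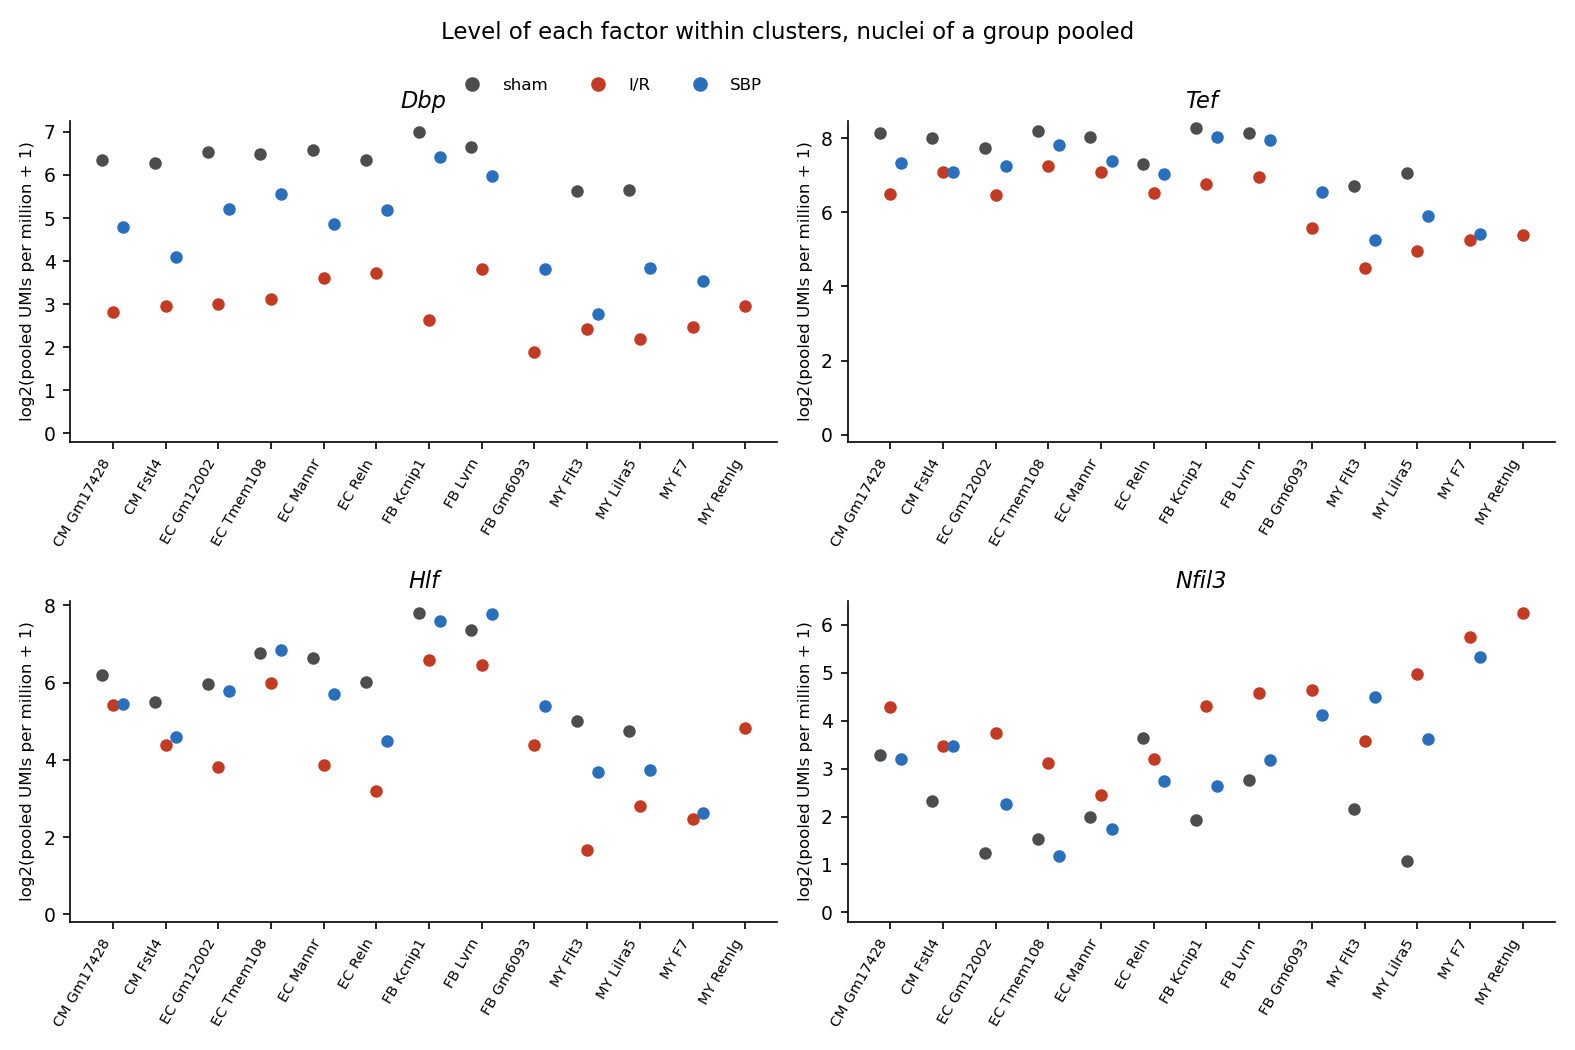
Log2 of pooled CPM plus 1 for each factor in clusters of cardiomyocytes (CM), endothelial cells (EC), fibroblasts (FB) and myeloid cells (MY), named by their leading gene, for groups with 50 or more nuclei (sham grey, I/R red, SBP blue). The I/R point of Dbp is the lowest in every cluster that holds more than 1 group, and its SBP point lies between I/R and sham in every cluster that holds all 3.

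The rarer types are given as pooled values with counting intervals (95%). Smooth muscle cells and pericytes, which held 5 to 44 nuclei per mouse, and Schwann cells were not tested with limma. In smooth muscle cells and pericytes, Dbp was 137 CPM in sham (65 UMIs), 7.82 in I/R (3 UMIs) and 46.9 in SBP (21 UMIs), a ratio of I/R to sham of 0.0571 (0.0115 to 0.175). In the same cells the ratio was 0.266 (0.172 to 0.4) for Tef and 0.228 (0.132 to 0.375) for Hlf, and Nfil3 went from 0 UMIs in sham to 12 in I/R, for which no fold is given. The 3 intervals lie below 1, and for each of these genes the 3 I/R mice lay below the 3 sham mice. The share of all genes without overlap was not computed for these small sums. Fibroblast markers in these nuclei summed to 2233 to 3835 CPM in sham and 751 to 3059 in I/R. Cardiomyocyte markers there summed to 4220 to 10811 CPM in sham and 1502 to 6296 in I/R. The own markers of these nuclei summed to 2546 to 4881 and 4194 to 4823 CPM. RNA of fibroblasts and of cardiomyocytes in these levels therefore cannot be told apart. In T cells 14 UMIs of Dbp were counted for sham, 1 for I/R and 4 for SBP, with a pooled ratio of I/R to sham of 0.0656 (0.00155 to 0.431), but sham replicate 1 held 0 UMIs and the mice of the groups overlapped (exact permutation p = 0.4). For Hlf in T cells the ratio was 0.668 (0.233 to 1.82), a difference not detectable at this depth. In Schwann cells Dbp went from 11 UMIs in sham to 0 in I/R, too few for a fold.

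Pre-treatment with SBP was then set against I/R. No factor was called in any type (0 of 16, as for 0% of all genes in each of the 4 types), and the lowest limma adjusted p was 0.589. An unadjusted p under 0.05 was found for 10 of 16. These were 0 of 4 in cardiomyocytes (276 of 12899 genes) and 4 of 4 in endothelial cells (634 of 12227). In fibroblasts they were 4 of 4 (467 of 13068) and in myeloid cells 2 of 4 (419 of 10905). The SBP mice did not overlap the I/R mice for 4 of 4 factors in fibroblasts (8.34% of all genes) and 3 of 4 in endothelial cells (9.55%), and for 0 of 4 in cardiomyocytes (5.6%) and myeloid cells (9.02%). Endothelial Nfil3, one of these 3, was over the filter on low counts in 0 sham, 3 I/R and 0 SBP mice. Its lack of overlap was thus fixed by the filter, and its unadjusted p is not separate from the filter. In endothelial cells the log2 fold change between SBP and I/R was 2.62 for Dbp (95% interval 1.46 to 3.79), 0.90 for Tef (0.21 to 1.58), 1.42 for Hlf (0.91 to 1.94) and −1.60 for Nfil3 (−2.51 to −0.69). Without I/R replicate 3, whose endothelial Dbp, Tef and Hlf were the highest of the I/R mice, limma called Dbp (3.31, adjusted p 0.0121), Tef (1.32, 0.0226) and Hlf (1.68, 0.0226). In fibroblasts the values were 2.54 for Dbp (1.63 to 3.44), 1.16 for Tef (0.58 to 1.74), 1.46 for Hlf (0.71 to 2.21) and −1.13 for Nfil3 (−2.15 to −0.11). With the replicate number as a block, an alternative for which the labels name no pairs, limma called Dbp in fibroblasts (adjusted p 0.0446).

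In cardiomyocytes the same contrast was smaller, with 0.89 for Dbp (95% interval −0.20 to 1.98), 0.31 for Tef (−0.18 to 0.80), 0.09 for Hlf (−0.47 to 0.65) and −0.20 for Nfil3 (−0.82 to 0.41). The Dbp mean of 16.7 ± 15.2 CPM (SD, n = 3) in SBP cardiomyocytes rested on SBP replicate 2, at 34.2 CPM, since the other two were at 7.23 and 8.67. In myeloid cells the values were 1.09 for Dbp (0.16 to 2.03), 0.52 for Tef (0.06 to 0.98), 0.63 for Hlf (−0.06 to 1.33) and −0.25 for Nfil3 (−1.53 to 1.03). The difference between cardiomyocytes and endothelial cells in this contrast was −1.73 for Dbp (95% interval −2.86 to −0.61) and −1.33 for Hlf (−2.08 to −0.59). Neither was called over all genes (limma adjusted p 0.988 for Hlf and higher for Dbp). For Hlf in endothelial cells, the means of SBP and sham hearts differed by less than the spread between mice, with 78.2 ± 15.7 CPM in SBP and 78.1 ± 7.73 in sham (SD, n = 3).

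Between SBP and sham, the 4 factors were called in myeloid cells, while the cardiomyocyte values of Dbp and Hlf were of like size and missed the threshold. limma called 4 of 4 factors in myeloid cells (12.7% of all genes) and 0 of 4 in cardiomyocytes (0.124%), endothelial cells (2.13%) and fibroblasts (5.98%). Of all genes, 5.42% were lower and 7.25% higher in myeloid cells, 0.00775% and 0.116% in cardiomyocytes, 1.45% and 0.679% in endothelial cells, and 2.13% and 3.84% in fibroblasts. In myeloid cells Dbp fell by 2.19 on the log2 scale (SE 0.43, limma adjusted p 0.00642), Tef by 1.44 (SE 0.21, 0.0013) and Hlf by 1.39 (SE 0.32, 0.0144), while Nfil3 rose by 3.79 (SE 0.58, 0.00249), a call lost with voom weights (0.183). The Hlf call was lost without sham replicate 3 (adjusted p 0.057), SBP replicate 2 (0.0642) or SBP replicate 3 (0.0579), and with cell types taken from marker scores (0.0822). In fibroblasts, a fit with the replicate number as a block called Dbp (−1.29, limma adjusted p 0.0216) and Nfil3 (1.47, 0.0461). Deviations of same-numbered sham and SBP mice had small r there (0.124, 0.133 and 0.116), and those of pairs with I/R mice ran from −0.233 to 0.295. The labels name no pairs, so this fit is an alternative only. SBP and sham mice did not overlap for 4 of 4 factors in myeloid cells (34.1% of all genes), 3 of 4 in cardiomyocytes (23.2%), 2 of 4 in endothelial cells (24.4%) and 1 of 4 in fibroblasts (27.1%). Myeloid Nfil3 was over the filter on low counts in 0 sham, 3 I/R and 3 SBP mice. Its call and its lack of overlap are therefore not separate from the filter. Myeloid Dbp and Hlf were over it in 3 sham and 2 SBP mice. In cardiomyocytes the values of −2.47 for Dbp (limma adjusted p 0.0807), −1.01 for Tef (0.0923) and −1.36 for Hlf (0.0692) missed the threshold, and all 3 were called without I/R replicate 1, which is in neither group and enters through the shared spread (0.0387, 0.0283 and 0.0118).

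The difference between SBP and sham was larger in myeloid cells than in endothelial cells for Nfil3 (−3.75, endothelial minus myeloid, SE 0.45, limma adjusted p 0.000556, 5.58% of genes called) and for Hlf (1.38, SE 0.31, 0.0198). It was also larger in myeloid cells than in cardiomyocytes for Nfil3 (−3.54, SE 0.65, limma adjusted p 0.00502, 7.84% of genes called) and than in fibroblasts (−2.32, SE 0.61, 0.043, 6.58%). The last of these, and the Hlf difference, were lost without 5 of the 9 mice, where the adjusted p reached 0.138 (without sham replicate 1) and 0.103 (without SBP replicate 2). Nfil3 was over the filter on low counts in 0 sham mice in myeloid cells, and in 0 sham and 0 SBP mice in endothelial cells. There it passed through I/R mice alone, which are in neither group compared.

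Levels were also ordered between the main cell types, without TMM scaling and without the rarer types. The measure was the mean over mice of the log2 difference between types of the same mouse. In sham, 42.5% to 73.7% of all genes differed between 2 types, and 12 of the 24 differences of the factors did. Hlf was highest in fibroblasts, above endothelial cells by 1.34 (SE 0.16, limma adjusted p 6.01e-06) and cardiomyocytes by 1.53 (SE 0.27, 0.000303). No difference between those 2 types was called (−0.19, 95% interval −0.68 to 0.31), and both were above myeloid cells, cardiomyocytes by 1.43 and endothelial cells by 1.62. Among the main types, Tef was lowest in myeloid cells, 0.86 to 1.16 below the others, between which no difference was called (−0.30 to 0.23). Dbp separated only fibroblasts from myeloid cells (1.25, SE 0.32, limma adjusted p 0.00624).

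For Nfil3 the place of myeloid cells and fibroblasts in the order of types differed between the groups. In sham, cardiomyocytes were the highest, above endothelial cells by 1.46 (SE 0.29, limma adjusted p 0.000482), fibroblasts by 1.28 (SE 0.36, 0.00619) and myeloid cells by 2.01 (SE 0.44, 0.00101). In I/R, myeloid cells were on average above cardiomyocytes by 1.51 (limma adjusted p 0.00658, 77% of genes called) and endothelial cells by 1.81 (0.000303, 50.6%). I/R replicate 1 had the reverse order, with 15.9 CPM in myeloid cells and 18.7 in cardiomyocytes. Replicates 2 and 3 had 99.7 and 28.1 CPM in myeloid cells and 9.89 and 8.96 in cardiomyocytes. Between myeloid cells and fibroblasts in I/R, the difference of 0.61 had a 95% interval from −0.32 to 1.54. In SBP hearts myeloid cells were above all 3 other types, by 1.54 to 3.19. Cardiomyocytes were above endothelial cells in SBP by 1.66 (SE 0.29, limma adjusted p 0.000156), as in sham, while in I/R the difference of 0.30 had a 95% interval from −0.33 to 0.93. Within SBP hearts, where 74.8% of all genes differed between cardiomyocytes and endothelial cells, Dbp was lower by 1.54 in cardiomyocytes (SE 0.37, limma adjusted p 0.00168), Hlf by 1.54 (SE 0.23, 3.01e-05) and Tef by 0.43 (SE 0.12, 0.00582). For these factors the difference of effects between the 2 types was not called in any contrast.

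Over the 36 sums (9 mice in 4 types), with the mean of each type taken off, the pattern of each factor was compared with 10097 genes by Pearson r, as a description of points that share libraries. The genes most like Dbp were the clock repressor Per3 (r 0.960), Tef (0.931), Hlf (0.898), Nr1d2 (0.892) and Ltbp4 (0.863). For Tef they were Per3 (0.967), Nr1d2 (0.956), Dbp, Hlf (0.911) and Nr1d1 (0.853), and for Hlf they were Tef, Dbp, Per3 (0.892), Nr1d2 (0.853) and Gstk1 (0.840). Nfil3 ran against the activators, with r of −0.773 to Dbp, −0.820 to Tef and −0.756 to Hlf. The genes most like Nfil3 were Pgs1 (0.894), Sema6b (0.880), Plaur (0.877), Rai14 (0.863) and the non-coding A930007I19Rik (0.863), none of them from the clock lists.

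The other clock genes, taken from lists written with earlier results of these data known, were counted beside the factors. Of the 4 clock activators, the number called higher in I/R than in sham was 2 for cardiomyocytes, 3 for endothelial cells, 4 for fibroblasts and 2 for myeloid cells, with median log2 fold changes over the list of 1.06, 1.31, 2.08 and 0.56, where the medians over all genes were −0.03, −0.02, 0.02 and 0.09. Arntl, which encodes BMAL1, rose in each type, by 3.18, 3.15, 3.59 and 1.77, and Clock by 1.31, 0.86, 1.08 and 0.52, and Npas2 rose in fibroblasts by 3.09, with uncalled values of 0.80, 1.52 and 0.60 in cardiomyocytes, endothelial cells and myeloid cells, a difference between types that was not tested here. Of the 10 repressors, 3 fell in cardiomyocytes, 2 in endothelial cells, 7 in fibroblasts and, of 9 tested, 3 in myeloid cells, and none rose. Of all genes, 0.163%, 1.36%, 4.55% and 7.62% were called lower in these types, and 0.651%, 1.84%, 6.93% and 10.1% higher. Per3 fell in all 4 types, by 1.83, 1.72, 2.12 and 2.32, and Nr1d1 fell in fibroblasts by 3.31 and in myeloid cells by 2.33. Of the 3 ROR receptors, which act on the element that REV-ERB represses, Rora fell in endothelial cells by 0.80, in fibroblasts by 1.01 and in myeloid cells by 1.43.

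**Figure D4:**
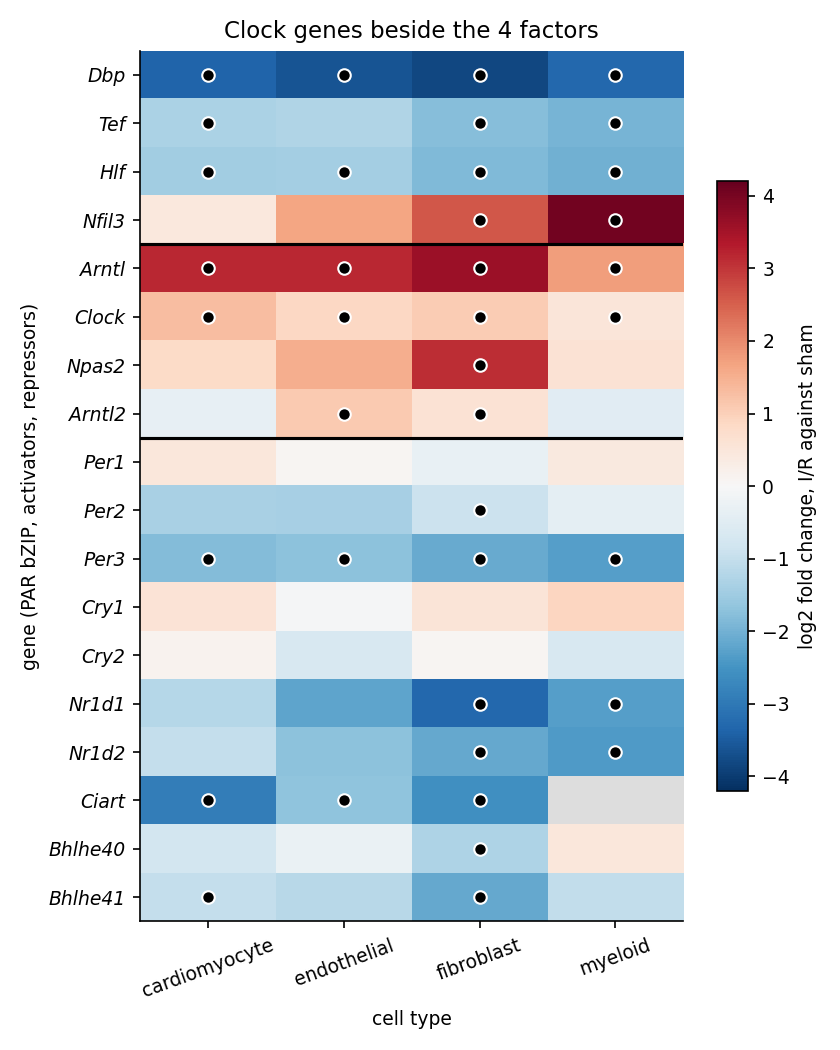
Log2 fold change between I/R and sham (colour) of the 4 factors, 4 clock activators and 10 clock repressors in 4 cell types, with a dot where limma called the gene and grey where it was not tested. Arntl and Clock are red with a dot in every type, and Dbp and Per3 are blue with a dot in every type.

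The list of D-box and PAR bZIP targets, known mainly from liver, held 13 genes found in the files, of which 9 or 10 were tested per type. It gave 1 lower gene in cardiomyocytes (Per3), 1 in endothelial cells (Per3) and 4 in fibroblasts (Per2, Per3, Nr1d1 and Nr1d2), none of them higher, and these are clock repressors also counted above. In myeloid cells 3 fell (Per3, Nr1d1 and Nr1d2) and 3 rose, which were Por, the reductase that feeds electrons to cytochromes P450, by 2.04, Pdxk, which makes active vitamin B6, by 1.08, and Alas1, the first enzyme of heme synthesis, by 0.78. Of all genes in myeloid cells, 7.62% were called lower and 10.1% higher. The median log2 fold change of the list was −0.55, −0.33, −0.55 and 0.41 in the 4 types. Of the C/EBP relatives, Cebpb rose in endothelial cells by 1.90, in fibroblasts by 1.46 and in myeloid cells by 2.32. Of other clock outputs Noct rose in fibroblasts by 1.60 and in myeloid cells by 1.93, and of kinases and ligase parts Btrc fell in fibroblasts by 0.46. No gene of these lists was called between SBP and I/R.

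Genes that share sequence with a member were checked, since strand use in counting is not given in the sources used here. Sphk2, on the other strand, shares 737 bases with Dbp. In cardiomyocytes Sphk2 had 6.49 ± 1.45 CPM in sham hearts and 10.7 ± 0.716 after I/R (SD, n = 3, log2 fold change 0.66, limma adjusted p 0.196), and it rose in myeloid cells from 13.3 ± 2.42 to 35.1 ± 2.60 CPM (SD, n = 3, log2 fold change 1.34, limma adjusted p 0.00194), against the direction of Dbp. The antisense gene Gm17597 shares 193 bases with Tef and gave 20 UMIs over all sham nuclei, 8 over I/R and 15 over SBP nuclei, against 10979, 4694 and 6581 for Tef. No gene overlaps Hlf or Nfil3.

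Summed over all nuclei, as a bulk sample would show them, Dbp was 69.9, 131 and 73.4 CPM in sham, 4.91, 5.15 and 9.44 in I/R and 18.7, 35.9 and 28.9 in SBP, with no overlap between any 2 groups. Tef was 278, 274 and 285 CPM, then 60.9, 76.0 and 137, then 129, 150 and 163. Hlf was 92.0, 101 and 113 CPM, then 26.3, 21.9 and 39.9, then 53.9, 64.2 and 87.6, again without overlap between groups. Nfil3 was 7.06, 4.71 and 6.50 CPM, then 16.1, 32.9 and 14.7, then 14.9, 9.17 and 9.56. The share of all genes without overlap was 30.6% in I/R against sham, 8.41% in SBP against I/R and 33% in SBP against sham. limma called all 4 between I/R and sham (11.3% of all genes), with log2 fold changes of −3.61, −1.69, −1.80 and 1.57 (adjusted p 0.000549, 0.00589, 0.00367 and 0.0138). Nfil3 lost its call without sham replicate 3 (adjusted p 0.0537). None was called between SBP and I/R (0% of all genes), and 4 of 4 had an unadjusted p under 0.05, as had 720 of 16045 genes. The log2 fold change was 1.95 for Dbp (95% interval 1.23 to 2.66) and 1.21 for Hlf (0.69 to 1.73). Between SBP and sham (3.36% of all genes) Dbp was called (−1.67, adjusted p 0.0315), and the call was lost without each of the sham and SBP mice in turn (0.0516 to 0.111).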

How the data were processed

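Nuclei of frozen heart tissue were profiled with 3′ single-nucleus libraries in 3 mice per group. The submitters' processing notes name Cell Ranger 4.0, STAR, Seurat 3.2.0 and the build GRCm38, while the methods name other versions of Cell Ranger and Seurat and describe down-sampling to similar reads per cell and removal of mitochondrial genes. The authors deposited one table per mouse of natural log values, ln(1 + UMIs scaled to a fixed total per nucleus). Undoing the log gave whole UMIs for 99.99954% or more of the values of each mouse, which were summed, while tests ran on log2 values because the deposited unit is a log. The members and all gene lists were chosen with earlier results of these data known.

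Nuclei were clustered with scanpy 1.11.5 and leidenalg 0.10.2 (2000 variable genes, 30 components, 20 neighbours, resolution 0.6) under Python 3.11.15, and clusters were named when at least 3 markers were each in over 10% of nuclei. Assignment by marker score gave the same type for 78.8% of nuclei. Scrublet marked 84 nuclei (0.171%), which were removed, and this share was taken to mean that doublets were not found. UMIs were summed per mouse and type, scaled with TMM factors, filtered (10 UMIs in the median library in 3 mice, 15 in all) and tested as log2(CPM + 1) with limma 3.58.1 (R 4.3.3, trended and robust), with all 9 mice in 1 fit per type. Fold changes are on that scale, which understates changes of low genes. Calls needed a Benjamini-Hochberg adjusted p under 0.05 over all genes and an absolute log2 fold change over 0.25. Effects were compared between types on differences within mice. Tested on simulated counts for the comparison of I/R with sham, the fit recovered, of 200 genes given a log2 difference of 2, 99% in cardiomyocytes, endothelial cells and fibroblasts and 98% in myeloid cells. The changed genes were drawn from those with more UMIs than the filter needs, and every gene had the same set spread between mice. These shares therefore do not hold for genes with few UMIs, such as Nfil3 in sham myeloid cells, or with a wider spread.

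The 4 members were named in every type, plus the 5 genes most like each member and the genes that overlap one. Of other lists, the rule was up to 4 genes per type with the largest change among those called, and some genes under it are not printed. Btrc, Noct, Cebpb, Rora and the targets fall under the same rule. Alternatives were other scalings, pseudocounts and filters, voom weights, a replicate block, only the mice compared, cell types from marker scores, 2168 further nuclei removed and each mouse left out. Taking off cardiomyocyte or myeloid RNA was added after seeing the data. P-values measure the spread between mice. Intervals and floors from counts cover counting error only.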

Additional observations from a re-analysis of the deposited data

Results flagged for a closer look

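For 7 results the size of a change differed between 2 cell types by limma's test of the difference itself, adjusted over all genes. In I/R against sham, the log2 fold change of Nfil3 was lower in cardiomyocytes than in fibroblasts by a difference of −2.15, lower in cardiomyocytes than in myeloid cells by −3.58, and lower in endothelial cells than in myeloid cells by −2.39. In SBP against sham, the Nfil3 difference was −3.54 for cardiomyocytes minus myeloid cells, −3.75 for endothelial minus myeloid cells and −2.32 for fibroblasts minus myeloid cells. For Hlf in SBP against sham, it was 1.38 for endothelial minus myeloid cells. Sham myeloid nuclei held 4 UMIs of Nfil3 in all, which limits every difference that includes them. Nfil3 was below the filter on low counts in every sham mouse there, and in every sham and SBP mouse in endothelial nuclei.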

How the results depend on the processing

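In I/R against sham, 13 of 16 combinations of factor and type were called, 10 to 14 when each mouse was left out and 12 to 14 under 13 other settings. In SBP against I/R, 0 were called, 0 to 3 with each mouse left out and 1 with a replicate block. In SBP against sham, 4 were called, 3 to 8 with each mouse left out and 3 to 7 under the 13 other settings, with 3 under voom weights or with cardiomyocyte RNA taken off and 7 with only the 6 mice compared. Over all nuclei 5 were called (3 to 6 with each mouse left out), of the differences between types 7 (4 to 9), and of the differences of level in sham 12 (9 to 13, and 17 with TMM over all sums). The cause was not tested. In I/R against sham the calls of the 4 factors in fibroblasts, of Dbp in endothelial cells and of Dbp, Tef and Hlf in myeloid cells were made under each of 22 alternatives, as were those of Dbp and Tef in myeloid cells in SBP against sham. For myeloid values, the alternative that takes off myeloid RNA changes nothing by design and is no separate check.

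Some values that were not called changed sign. With each mouse left out, SBP against I/R ranged from −0.11 to 0.38 for Hlf and from −0.39 to 0.14 for Nfil3 in cardiomyocytes and from −0.80 to 0.52 for Nfil3 in myeloid cells. In endothelial cells SBP against sham ranged from −0.16 to 0.14 for Hlf and from −0.24 to 0.47 for Nfil3. The endothelial Hlf value was 0.12 with the highest-scoring nuclei removed, 0.058 with cardiomyocyte RNA taken off and 0.019 with myeloid RNA taken off, and the endothelial Nfil3 value −0.65 with myeloid RNA taken off.

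Over all nuclei same-numbered mice had deviations with r of −0.399 to 0.288, and 3 of 9 pairs were over 0.1 (1 in cardiomyocytes, 2 in endothelial cells, 5 in fibroblasts, 3 in myeloid cells), so the replicate numbers were not taken as pairs in general. Sham against SBP in fibroblasts had all 3 pairs over 0.1, but at small r, and the labels name no pairs. With the replicate block, Hlf in cardiomyocytes lost its call in I/R against sham (adjusted p 0.0526), Dbp in fibroblasts was called against I/R (0.0446) and against sham (0.0216), and Nfil3 in fibroblasts in SBP against sham (0.0461), all by limma. Depth limits Nfil3 in myeloid cells, with 4 UMIs in sham, and Dbp in I/R, with 44 UMIs in myeloid cells.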
